A study of Mus musculus with 6 samples.

Results

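Transcripts of 10 plasma proteins that are made mainly in liver (Ahsg, Afp, Ttr, Apoa1, Apoa2, Fgb, Fgg, Ambp, Apoh and Apob) were examined in mouse heart at postnatal day 6 (P6), in pups with and without ectopic activation of the human SRY gene. The genes were taken by symbol from the heart array, which carries probes for 18138 gene symbols, and they were selected on their detection and level in these same 6 hearts. Of the 10 genes, 9 matched a probe and Apob was not analysed here. The levels and differences of these genes are therefore given as a description, with no test.

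The study asked what SRY, the testis-determining factor of the Y chromosome, does when it is active outside the gonad. A single copy of the Signalox-hSRY transgene at the H11 locus carried FLAG-tagged human SRY and EGFP behind a floxed DsRed2 gene, under the broadly active CAG promoter. In hSRY-ON pups the floxed segment had been removed in the one-cell embryo by Cre recombinase that a Ddx4-Cre mother left in the egg, and the hSRY-ON pups used for the arrays did not inherit Ddx4-Cre themselves. Hearts of male pups were measured, 3 of them hSRY-ON and 3 hSRY-OFF, labelled FVB (FVB/N in the methods) and each on 1 array. The methods define hSRY-OFF as the unrecombined transgene, whereas elsewhere the controls are littermates with Ddx4-Cre alone or with no transgene, so which genotype the control hearts carried cannot be told apart. The animals limit the comparison in a further way, since hSRY-ON pups suckled little and died before adulthood, and transgene activity and poor feeding were present together. No probe for the human transgene was measured here.

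Hepatocytes secrete most of the protein of blood plasma, and the genes for these proteins are switched on by a shared set of factors, the HNF1, HNF4, FOXA and C/EBP families. Some of the genes are also active elsewhere: Ttr in the choroid plexus of the brain, Apoa1 in the intestine, and Afp in the yolk sac and fetal liver, where it is shut off around birth. In adult heart muscle they are little used. Albumin (Alb), the most abundant plasma protein of the liver, was read beside these genes.

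The sequence just before the transcription start was read for 9 of the genes, all but Ttr, from RefSeq (GRCm38.p6). Shown here are 250 bases, 5′ to 3′ on the strand of the gene, of Ahsg (chr16:22891765-22892014, plus strand), which was detected in all 6 hearts, and of Afp (chr5:90490464-90490713, plus strand) and Fgb (chr3:83049864-83050113, minus strand), which were detected in none. Capitals mark letters of 3 motifs searched on both strands, a TATA box (TATAAA), an HNF1 half-site (GTTAAT) and a C/EBP site (TTGCNNAA).
Ahsg: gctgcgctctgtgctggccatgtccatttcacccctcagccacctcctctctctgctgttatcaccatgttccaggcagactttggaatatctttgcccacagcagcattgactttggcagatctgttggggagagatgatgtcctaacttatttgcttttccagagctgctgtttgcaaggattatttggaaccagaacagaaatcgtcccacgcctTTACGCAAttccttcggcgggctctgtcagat
Afp: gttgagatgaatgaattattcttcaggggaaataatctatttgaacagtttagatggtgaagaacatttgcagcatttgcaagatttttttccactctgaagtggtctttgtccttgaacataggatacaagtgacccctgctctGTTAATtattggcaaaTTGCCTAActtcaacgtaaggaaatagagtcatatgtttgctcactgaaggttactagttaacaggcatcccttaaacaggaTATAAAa
Fgb: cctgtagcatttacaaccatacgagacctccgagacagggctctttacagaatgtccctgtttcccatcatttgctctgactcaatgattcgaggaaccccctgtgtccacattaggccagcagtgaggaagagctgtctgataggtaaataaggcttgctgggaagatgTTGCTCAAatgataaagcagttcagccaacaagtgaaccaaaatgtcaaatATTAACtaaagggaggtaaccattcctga

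The C/EBP letters lay 32 to 25 bases before the start of Ahsg, on the opposite strand. In Afp they lay 89 to 82 bases before the start, next to an HNF1 half-site at 105 to 100, and a TATA box ended 2 bases before the start. In Fgb the C/EBP letters lay at 80 to 73 and an HNF1 half-site, on the opposite strand, at 29 to 24. Thus a C/EBP match stood before a member seen in every heart and before members seen in none. Over 32851 RefSeq windows of the same length, 9.56% held the C/EBP letters, 6.43% the HNF1 half-site and 12.4% the TATA box. A FOXA motif (TGTTTAC, in 3.17% of windows) was found in Apoa2 and Apoh, Apoa2 (which has 2 windows) and Apob also held TATA and C/EBP letters, and the windows of Apoa1, Fgg and Ambp held none of the motifs searched, an HNF4 site (CAAAGTCCA, in 0.384% of windows) included. These matches describe letters and say nothing of factor binding in these hearts.

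On the array, the brightness of the beads carrying a probe measures its transcript in a single colour. A probe was called detected in a heart when its deposited detection p-value, taken against negative-control beads, was under 0.05. Between 47.2% and 51.3% of 25697 probes were detected per heart, and the lowest detected intensity of an array was between 161 and 199.8. Hearts correlated at 0.983 to 0.992 within hSRY-OFF, 0.985 to 0.988 within hSRY-ON and 0.94 to 0.96 between the groups. All 11 matched cardiomyocyte markers were detected in both groups, 10 of them in every heart. By the brightest probe of each gene, 6 of the 11 fell in hSRY-ON hearts while 0 rose. Among these probes Pln, the regulator of the calcium pump, was down by the most (log2 difference -1.47, limma adjusted p = 0.00908). A dimmer second probe of Myh6 differed by -1.97 (limma adjusted p = 0.00154), and its brightest probe by -0.51 (limma adjusted p = 0.0185). In whole hearts, fewer cells of a type and less RNA per cell cannot be told apart.

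One hSRY-ON heart stood apart in markers of another organ. In hSRY-ON replicate 1 the airway secretory genes Scgb1a1 and Scgb3a2 reached normalized log2 intensities of 13.74 and 13.24 and the surfactant gene Sftpd reached 9.58. The other 5 hearts lay between 4.53 and 6.52 for Scgb1a1, with hSRY-OFF replicate 2 the highest of them, and at or below 5.04 for Scgb3a2 and Sftpd. Over 12 lung genes the summed normalized intensity, with the offset taken off, was 24393 in that heart, 272 and 317 in the other hSRY-ON hearts and 187 to 278 in hSRY-OFF. Sftpa1, Cldn18, Lamp3 and Slc34a2 were detected in no heart. Differences of the members without that heart are given below, and the part of these transcripts in them was otherwise not tested.

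Of the 9 matched genes, 6 were detected in at least 1 heart and 3 in none. Counted per heart, detection reached 1, 2 and 1 of the 9 in hSRY-OFF and 3, 3 and 5 in hSRY-ON. Of their 10 probes, 4 had every hSRY-ON heart above every hSRY-OFF heart in normalized log2 intensity, beside 14.9% of all probes on the array, and 0 had every hSRY-ON heart below, beside 14.1% of all probes. The hearts of the 2 groups overlapped for the other 6 probes. Since these values chose the genes, nothing is read from the counts. Only 2 of the genes, by 3 probes, met the filter used for testing, which asked for detection in at least 3 of the 6 hearts. Ahsg met it in both groups and Ttr only through the hSRY-ON hearts.

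**Figure D1:**
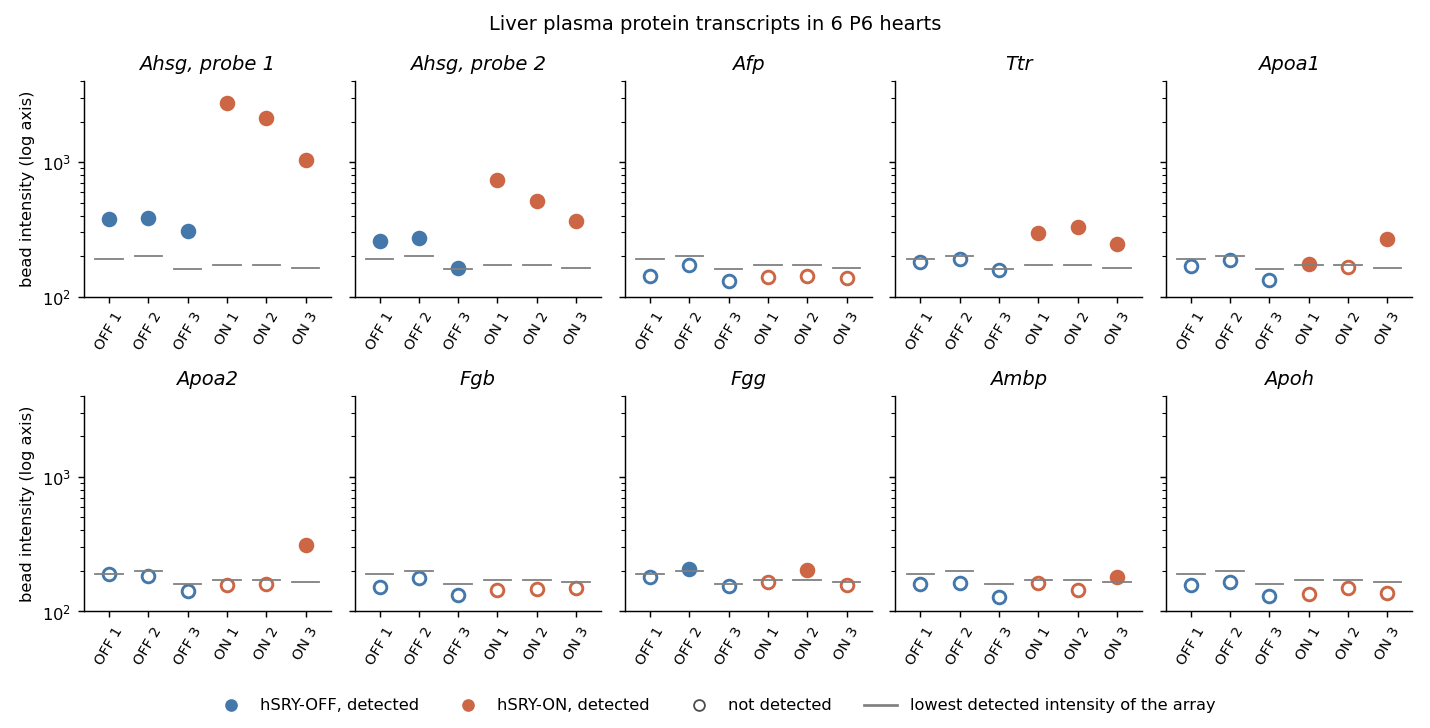
Unnormalized bead intensity (log axis) of each probe of the 9 matched genes in the 3 hSRY-OFF (blue) and 3 hSRY-ON (orange) hearts, 1 point per heart, filled where detected, with a grey line at the lowest detected intensity of that array. Both Ahsg probes were detected in all 6 hearts and were higher in hSRY-ON, Ttr was detected in the hSRY-ON hearts alone, and Apoa2 and Ambp were detected in hSRY-ON replicate 3 alone.

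Ahsg encodes fetuin-A, a secreted glycoprotein that binds calcium phosphate and keeps soft tissue from calcifying. Its first probe gave intensities of 380.2, 385 and 305 in hSRY-OFF replicates 1 to 3 and of 2749, 2133 and 1041 in hSRY-ON replicates 1 to 3. The groups did not overlap, and the transcript was already detected in all 3 control hearts. On the normalized log2 scale the probe averaged 10.77 ± 0.78 in the hSRY-ON group and 7.71 ± 0.22 in the controls (SD, n = 3 each), a difference of 3.07 or 8.37-fold. The second probe gave 258, 272 and 164 in hSRY-OFF and 731, 512 and 364 in hSRY-ON hearts. It was detected in all 6 hearts too, in hSRY-OFF replicate 3 with a detection p-value of 0.0326, and again no hSRY-ON heart fell among the controls. Its means were 8.64 ± 0.69 and 6.30 ± 0.53 (SD, n = 3), a difference of 2.34 or 5.06-fold.

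Both Ahsg probes put the hSRY-ON hearts in the same order, with replicate 1 highest and replicate 3 lowest. Replicate 3 differed from the mean of the other hSRY-ON hearts by -1.28 and -0.99 log2 units. Replicate 1, the heart with airway transcripts, carried part of the mean difference, which was 2.73 and 1.98 for the 2 probes without it. The hSRY-ON hearts remained above all controls when it was left out.

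Ttr encodes transthyretin, the carrier of thyroid hormone and, with retinol-binding protein, of vitamin A. Its probe read 180.1, 189 and 157 in hSRY-OFF hearts, none of them above background, and 295, 331 and 248 in hSRY-ON hearts, all of them above background. Here replicate 2 was the highest hSRY-ON heart. The normalized log2 means were 7.38 ± 0.34 in hSRY-ON and 5.20 ± 0.16 in hSRY-OFF (SD, n = 3), a difference of 2.18. Because no control heart was above background, the fold is given as a bound only. It was set against the higher, in each control heart, of the probe itself and the lowest detected signal. Under the processing used, Ttr was at least 3.87-fold higher in hSRY-ON, and without hSRY-ON replicate 1 the log2 difference was 2.13. The bound holds for that background correction only, and with no background correction the log2 difference was 0.83. Rbp4, the retinol-binding partner of Ttr in plasma, was detected in no heart.

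The choroid plexus is the other main source of Ttr, and 6 of 8 markers listed for it matched the array. Clic6, a chloride channel protein of that epithelium, rose by 2.40 (adjusted p = 0.000886, higher in 3 of 3 hSRY-ON hearts), Folr1, a folate receptor, rose by 0.70, and Prlr, the prolactin receptor, fell to background in all hSRY-ON hearts, at least 1.56-fold lower (limma, adjusted p = 0.00514 and 0.0175, the latter call being lost without hSRY-ON replicate 2). Kl and the defining factor Otx2 were detected in no heart. The summed normalized intensity of these 6 genes ran from 186 to 406 among hSRY-OFF hearts and from 328 to 508 among hSRY-ON hearts, and its part in the Ttr values was not tested.

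The apolipoproteins A-I and A-II, the main proteins of high-density lipoprotein, showed another order of hearts. Apoa1 read 169, 188 and 132 in hSRY-OFF, none detected, and 174, 165 and 269 in hSRY-ON, where replicates 1 and 3 were detected. The unnormalized intensities of the groups overlapped, while after normalization the lowest hSRY-ON heart (5.12) lay just above the highest control (5.05). The log2 difference of the means was 1.12, with an SD of 1.12 in hSRY-ON and 0.23 in hSRY-OFF hearts. No fold bound is given, since hSRY-ON replicate 2 was not detected either. Apoa2 read 188, 183 and 142 in hSRY-OFF and 157, 161 and 314 in hSRY-ON, and replicate 3 was the only heart of the 6 in which it was detected. Its groups overlapped, with a log2 difference of 0.80 and an SD of 1.54 in hSRY-ON hearts, and no fold bound is given for Apoa2 either.

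Ambp, the precursor of alpha-1-microglobulin and of the protease inhibitor bikunin, was likewise detected in hSRY-ON replicate 3 alone. It read 159, 164 and 128 in hSRY-OFF and 162, 143 and 179 in hSRY-ON hearts, with overlapping groups and a log2 difference of 0.53. Apoa1, Apoa2 and Ambp stood 1.91, 2.66 and 0.89 log2 units higher in replicate 3 than in the mean of the other hSRY-ON hearts, whereas Ahsg and Ttr stood lower there, with -0.57 for Ttr. Without replicate 1 the group differences of Apoa1, Apoa2 and Ambp were 1.34, 1.26 and 0.55. Without replicate 3 the group differences of Apoa1, Apoa2 and Ambp were 0.48, -0.08 and 0.24. The difference of Apoa2 therefore rested on replicate 3, and those of Apoa1 and Ambp were smaller without it. Those of Ahsg and Ttr were larger without replicate 3, at 3.49 and 2.67 for the Ahsg probes and 2.37 for Ttr.

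Fibrinogen is built from 3 chains, of which Fgb and Fgg are members here. Fgg read 179.7, 208 and 154 in hSRY-OFF and 166, 204 and 156 in hSRY-ON hearts, and it was detected in replicate 2 of each group. The groups overlapped, with a log2 difference of 0.16 that became -0.19 without hSRY-ON replicate 2 and 0.27 without hSRY-ON replicate 1. Fgb was detected in no heart and its intensity ran from 132 to 179. Fga, the third chain and no member, was detected in hSRY-ON replicate 3 by both of its probes and in hSRY-ON replicate 1 by one of them.

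Afp, the fetal counterpart of albumin, and Apoh, beta-2-glycoprotein I, which binds phospholipids, were also detected in no heart. Afp lay between 131 and 171 in intensity and Apoh between 131 and 165, and their log2 differences of -0.02 and -0.04, like that of 0.01 for Fgb, were differences between background readings. Without hSRY-ON replicate 1 they were -0.02, 0.01 and 0.03. A transcript below background on this array is not shown to be absent.

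**Figure D2:**
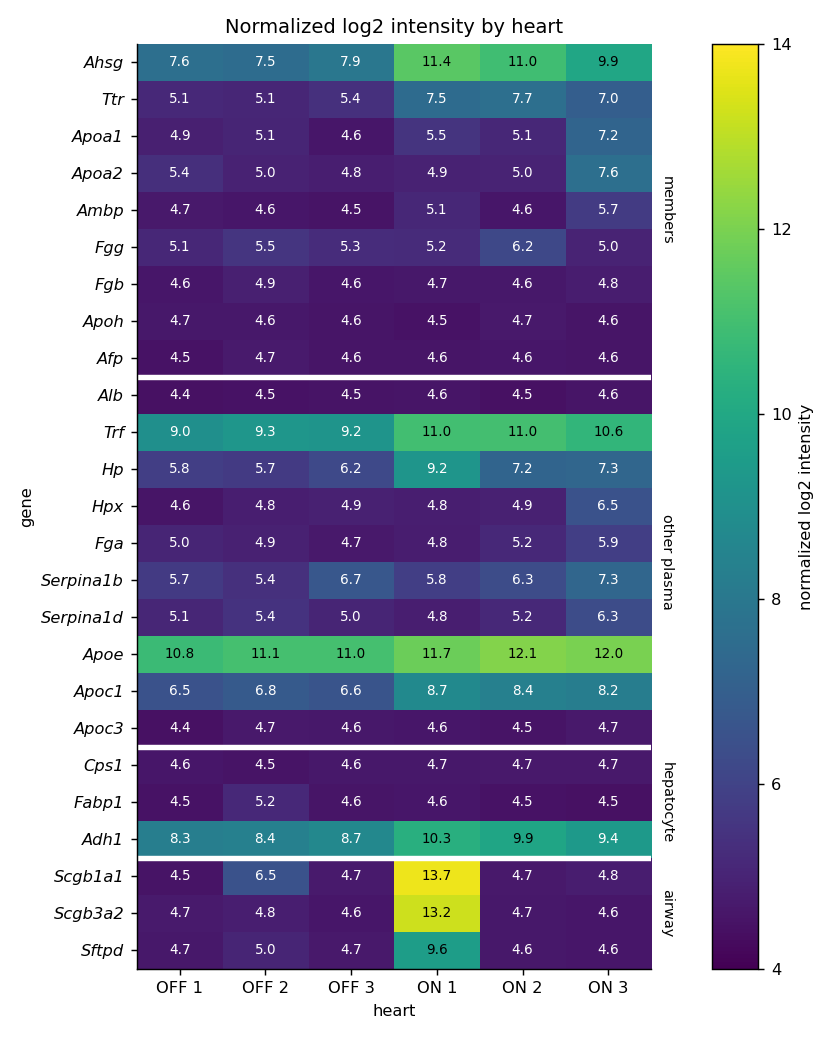
Normalized log2 intensity in each of the 6 hearts (columns) of the 9 matched members, of other plasma protein genes, of hepatocyte genes and of airway genes (rows), by the brightest probe of each gene. Ahsg and Ttr were higher in all hSRY-ON hearts, Apoa1, Apoa2 and Hpx stood out in ON 3 and the airway genes in ON 1, while Alb stayed near 4.5 throughout.

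Liver RNA as a whole was looked for through genes outside the members. Alb was detected in no heart and its intensity lay between 128 and 153, with 138 in hSRY-ON replicate 3. Of 47 matched enzymes and transporters kept inside hepatocytes, 32 were detected in no heart, among them the urea cycle enzyme Cps1 and the fatty acid binding protein Fabp1. Apoa4, Apoc3, Plg and Foxa3 were at background in every heart too. The summed normalized intensity of the hepatocyte list ran from 2346 to 2662 among hSRY-OFF hearts and from 3749 to 4387 among hSRY-ON hearts. Genes detected in every heart weigh on this sum, among them Fah, Cyp27a1 and Adh1, with normalized log2 means of 9.77, 8.87 and 8.43 in hSRY-OFF. The sum therefore cannot size liver RNA in a heart, and its part in the members' values was not tested.

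In hSRY-ON replicate 3, where Apoa1, Apoa2 and Ambp were highest, some further liver genes passed the detection threshold. Of 152 matched genes on the other plasma protein and hepatocyte lists, 4 were detected in hSRY-ON replicate 3 alone, namely Hpx, Fga, C8a and Mat1a by their brightest probes. The other hearts had 2 and 1 such genes in hSRY-ON and 2, 6 and 1 in hSRY-OFF. Over all genes, 1.12% were detected in hSRY-ON replicate 3 alone, and 0.375% to 0.899% in each of the other hearts alone. Hpx, which encodes the haem carrier hemopexin, had an intensity of 215 there and of 144 to 177 elsewhere by that probe. Its second probe was not above background in replicate 3 (162) and was detected in hSRY-ON replicate 2 alone (176), with 139 to 189.6 in hSRY-OFF.

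The remaining plasma proteins did not share one direction. Over all genes tested with limma (lmFit and eBayes, Benjamini-Hochberg adjustment over all probes, adjusted p under 0.05, 1 probe per gene), 14.9% rose and 13.9% fell in hSRY-ON hearts, and the median log2 difference was 0.00. Of 105 other plasma protein genes matched, 55 were detected in no heart and 32 were tested, of which 10 rose (31.2%), 5 fell (15.6%) and 17 passed in neither direction, with a median log2 difference of 0.40. Of the 10 that rose, 8 were detected in all 6 hearts, controls included, and 1 in no control heart. Counted per heart, 30, 36 and 28 of the 105 were detected in hSRY-OFF and 31, 31 and 38 in hSRY-ON hearts.

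Among carriers in plasma, Trf (transferrin), Hp (haptoglobin, which binds free haemoglobin) and Cp (the copper protein ceruloplasmin) rose. Trf had intensities of 735, 913 and 548 in hSRY-OFF and of 1976, 2188 and 1586 in hSRY-ON hearts, so that all hSRY-ON hearts were higher. The difference of the normalized log2 means was 1.71 ± 0.15 (SE, adjusted p = 0.000429). Hp rose by 1.99 ± 0.50 (SE, adjusted p = 0.0223), and its level of 9.22 in hSRY-ON replicate 1, the heart with airway transcripts, stood above 7.21 and 7.32 in the others. Without that heart the difference was 1.34. The adjusted p of Hp became 0.0668 without hSRY-OFF replicate 1 and 0.0717 without hSRY-OFF replicate 2.

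Vtn (vitronectin, an adhesive plasma protein), Lrg1 and Igfals fell. Igfals was detected in no hSRY-ON heart, which sets its fall at 1.27-fold or more. Its call was lost without background correction (limma adjusted p = 0.114). Vtn read 7.62, 8.36 and 8.19 in hSRY-OFF and 5.33, 4.81 and 5.67 in hSRY-ON hearts on the normalized log2 scale, and it was detected in 1 of the 3 hSRY-ON hearts. Its difference of -2.79 ± 0.27 (SE, adjusted p = 0.000529) ran opposite to that of Ahsg and Ttr. Among 11 tested genes of carriers and hormones, 3 rose and 3 fell.

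Of 11 matched apolipoproteins outside the members, 6 were detected in no heart. Apoe and Apoc1, which lie side by side in the genome and are both made by macrophages, rose by 0.99 ± 0.15 and 1.80 ± 0.17 (SE, adjusted p = 0.00264 and 0.000493), while Apom and the gene listed as 0610008C08Rik (Apoo) fell, each by 0.86, the latter call being lost when any 1 heart but hSRY-OFF replicate 2 or hSRY-ON replicate 3 was left out. Among 8 Kupffer cell markers 6 were tested, of which 3 rose (1 of them detected in no control heart) and 0 fell. The largest rise was that of Vsig4, by 2.25 (limma adjusted p = 6e-05). The 3 others tested passed in neither direction. Emr1 differed by -0.21, Marco by 0.006 and Id3 by 0.32 (limma adjusted p = 0.563, 0.987 and 0.134). The Kupffer markers Timd4 and Cd5l were detected in no heart. The summed intensity of the 8 ran from 955 to 1145 among hSRY-OFF hearts and from 1610 to 1859 among hSRY-ON hearts, and its part in the values of Apoe and Apoc1 was not tested.

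Clotting factors were mostly below background. Of 20 matched, 11 were detected in no heart and 1 was tested, Pros1 (protein S), which rose by 0.40 ± 0.12 (SE, adjusted p = 0.0469) and lost the call when any 1 heart was left out. Kng1, the precursor of the kinins, was not tested, and its brightest probe was detected in hSRY-ON replicates 1 and 3 (intensities 296 and 232) and in no other heart, while 1 of its other probes was detected in hSRY-ON replicate 2 alone and the remaining one in none. F10 and Kng2 were likewise detected in 2 hSRY-ON hearts and no control heart. Among 5 tested protease inhibitors, Itih4 (0.97) and Serping1 (0.67), the inhibitor of complement C1, rose and none fell. The 2 Serpina1b probes, for an alpha-1-antitrypsin gene whose near-identical copies may share signal, differed by 0.55 and 0.09 with adjusted p of 0.391 and 0.845. Both, and its copy Serpina1d, were highest in hSRY-ON replicate 3 (normalized log2 7.30, 6.35 and 6.34), while Serpina1a was detected in no heart. Of 10 tested complement genes 2 rose (20%, beside 14.9% of all tested genes), 0 fell and 8 passed in neither direction, with a median log2 difference of -0.01. The rises were those of Masp1 and Cfi, by 2.26 and 1.66. Masp1 was detected in no control heart and met the filter only through the hSRY-ON hearts, which sets its rise at 3.39-fold or more.

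Of the 10 tested hepatocyte genes, 6 rose, 1 fell and 3 passed in neither direction. Of the 6 rises, 3 (Sds, Aldh1l1 and Gnmt) were detected in no control heart and so met the filter only through the hSRY-ON hearts. Over all genes, 126 of the 149 tested ones that no control heart detected were called higher, so nothing is read from the count or from a median over it. Sds (serine dehydratase) rose from background by 1.69, at least 2.40-fold, and Aldh1l1, a folate enzyme, and Gnmt, a methyl transferase, rose at least 2.002-fold and 1.51-fold. The alcohol dehydrogenase Adh1, detected in all hearts, rose by 1.43. Arg1 (arginase) fell by 1.59. Cps1 and Fabp1 were at background in all 6 hearts, and the part of liver RNA in the values of this list was not tested.

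**Figure D3:**
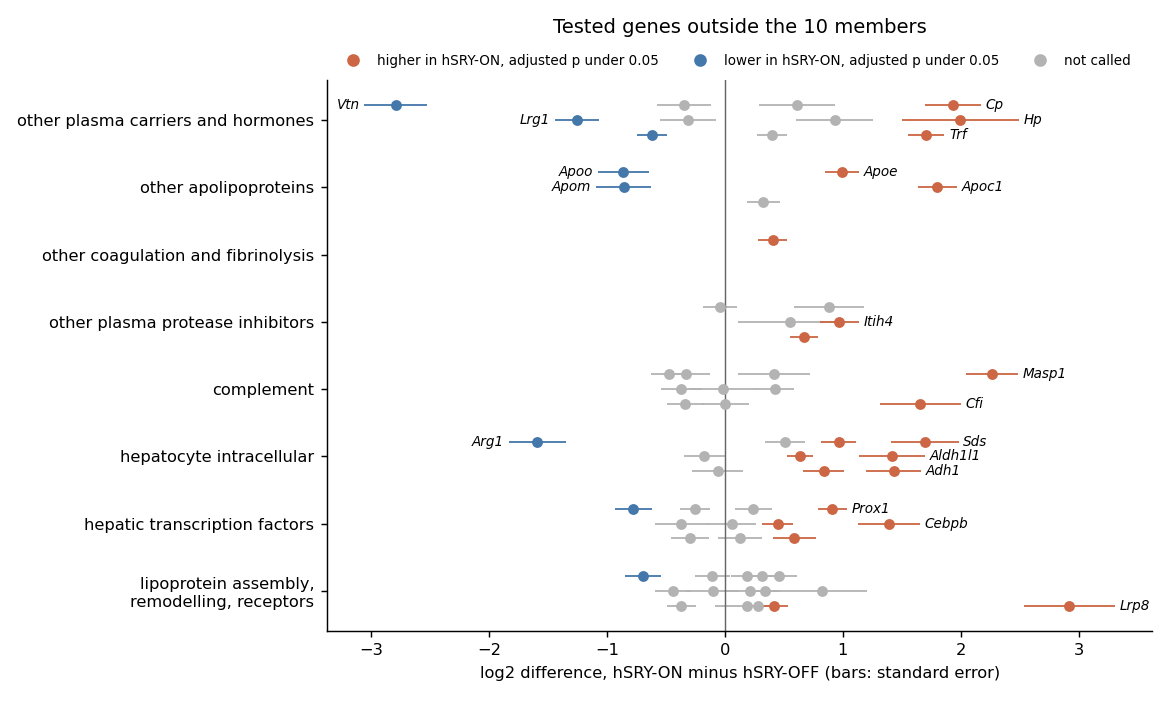
Log2 difference (hSRY-ON minus hSRY-OFF, with its standard error) of every tested gene on the lists of plasma proteins, hepatocyte genes, hepatic transcription factors and lipoprotein genes outside the 10 members, 1 point per gene. Orange genes rose and blue genes fell at a limma adjusted p under 0.05. Rises (such as Lrp8, Masp1 and Hp) and falls (such as Vtn, Arg1 and Lrg1) both occurred. Of complement, clotting factor and protease inhibitor genes, 2 of 10, 1 of 1 and 2 of 5 tested rose and 0 fell. The 1 clotting factor, Pros1, lost its call when any 1 heart was left out. Masp1 and Lrp8 met the filter only through the hSRY-ON hearts.

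Of the factors that control these genes in liver, 6 of the 11 tested passed in neither direction. Hnf4a was near background (0.13 ± 0.18 SE, adjusted p = 0.64), Cebpa differed by 0.24 (adjusted p = 0.297), and the postnatal repressors of Afp, Zhx2 and Zbtb20 (listed as Zfp288), by -0.30 and 0.06 (adjusted p = 0.211 and 0.863). Of the 11 tested, 4 rose (36.4%) and 1 fell (9.09%), beside 14.9% and 13.9% of all tested genes. All 4 that rose were detected in every heart, Gata6 and Prox1 with normalized log2 means of 12.11 and 9.71 in hSRY-OFF. The share is therefore not one of factors particular to liver. Cebpb, the C/EBP factor that responds to stress and hormones, rose by 1.39 ± 0.26 (SE, adjusted p = 0.00722), from 9.55, 9.75 and 9.97 to 11.16, 11.68 and 10.61 on the normalized log2 scale. Prox1, Gata6 and the bile acid receptor Nr1h4 rose by 0.91, 0.45 and 0.59, and Ppara, the fatty acid receptor, fell to background in all hSRY-ON hearts, at least 1.36-fold lower. The calls of Gata6 and Nr1h4 had adjusted p of 0.0431 and 0.0474 and were each lost when any 1 heart was left out, with the exception of hSRY-OFF replicate 2 for Gata6 and hSRY-ON replicate 2 for Nr1h4. The call of Ppara was lost without background correction (adjusted p = 0.0644).

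Genes that build, change or bind lipoproteins were tested as partners of Apoa1, Apoa2 and Apob. Of 15 tested, 2 rose (13.3%), 1 fell (6.67%) and 12 passed in neither direction, beside 14.9% and 13.9% of all tested genes that rose and fell. The reelin and apolipoprotein E receptor Lrp8 was detected in no control heart and, under the processing used, was at least 4.30-fold higher in hSRY-ON. It met the filter only through the hSRY-ON hearts, so nothing is read from its call. Lpl, the lipase that frees fatty acids for heart muscle, rose by 0.41 (adjusted p = 0.0415, a call lost when any 1 heart was left out), and Mttp, which loads lipid onto apolipoprotein B, differed by 0.18 (adjusted p = 0.646). The phospholipid transfer protein Pltp fell by 0.69.

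Genes of fetal liver and yolk sac, the other setting in which the members are active, gave 4 rises and 1 fall among 7 tested. Igf2bp3, an RNA-binding protein of fetal tissues, rose by 1.36 (adjusted p = 0.00122), H19, Gpc3 and Dlk1 rose by 0.58, 0.59 and 0.86, and Sox17, a factor of endoderm and endothelium, fell by 0.56. The call of Sox17 was lost when any 1 heart but hSRY-OFF replicate 3 was left out, that of H19 without hSRY-OFF replicate 2 and that of Gpc3 without hSRY-OFF replicate 1, and all 4 rises but that of Igf2bp3 were lost without normalization between arrays. That of Dlk1 was also lost without any 1 of replicates 1 and 2 of either group. The yolk sac gene Amn and the embryonic globins Hbb-y, Hba-x and Hbb-bh1 were detected in no heart, as was Afp. H19 and Dlk1 are also used by fetal and newborn heart and muscle.

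Other tissues that could lie beside a heart also differed between the groups. Ucp1, the marker of brown fat, read 4.64, 5.03 and 8.88 in hSRY-OFF and 10.81, 8.80 and 9.94 in hSRY-ON hearts on the normalized log2 scale, with a difference of 3.67 ± 1.07 (SE, adjusted p = 0.0395) whose call was lost when any 1 heart but hSRY-OFF replicate 3 was left out. The summed intensity of 8 brown fat genes ran from 1878 to 2630 among hSRY-OFF hearts and from 1088 to 3641 among hSRY-ON hearts, and Elovl3 and Retn were detected in no heart. Of 4 brown fat genes tested, 2 rose and 0 fell, the other rise being that of Adipoq (1.48, adjusted p = 0.0265), while Cidea differed by -1.05 (adjusted p = 0.0691, called lower under some alternatives) and Fabp4 was detected in 2 hSRY-OFF and 0 hSRY-ON hearts. Of 12 matched thymus genes 7 were detected in no heart, and of the 4 tested 0 rose and 2 fell, Cd3g by 0.78 and Cd3d by 0.63 (adjusted p = 0.032 and 0.0403). Of 8 matched gut genes 5 were detected in no heart, among them Fabp2, Vil1 and Cdx2, and of the 2 tested Lgals4 fell by 0.61 (adjusted p = 0.0362). Of 6 tested skeletal muscle genes 1 rose and 4 fell. Acta1, a fetal actin of the heart too, fell by 3.25 (adjusted p = 0.000389), and Actn3, detected in no control heart, rose at least 3.10-fold. Of 7 tested platelet genes 1 rose, Cxcl4 (Pf4, platelet factor 4), by 0.90 (adjusted p = 0.0442), and 0 fell. The calls of Cd3g, Cd3d, Lgals4, Cxcl4 and Adipoq were each lost when some single hearts were left out. Erythroid genes gave 0 rises and 3 falls among 9 tested, with Tfrc, the transferrin receptor, down by 1.42. The part of these tissues in the members' values was not tested.

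The genes whose profile over the 6 hearts was most like that of a member were sought among 9658 tested genes by Pearson's r on normalized log2 values, as a description. For Ahsg (first probe) these were Kctd10, Cd47 and Plvap, with r of 0.9995, 0.999 and 0.9987. For Ttr they were Pon2, Osbpl3 and Prnp, with r of 0.9992, 0.9981 and 0.9978. These points share the group difference and the arrays. Plvap, a protein of endothelial cells, differed by 1.66 and Kctd10 by 0.73, smaller steps of the same shape as the 3.07 of Ahsg.

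**Figure D4:**
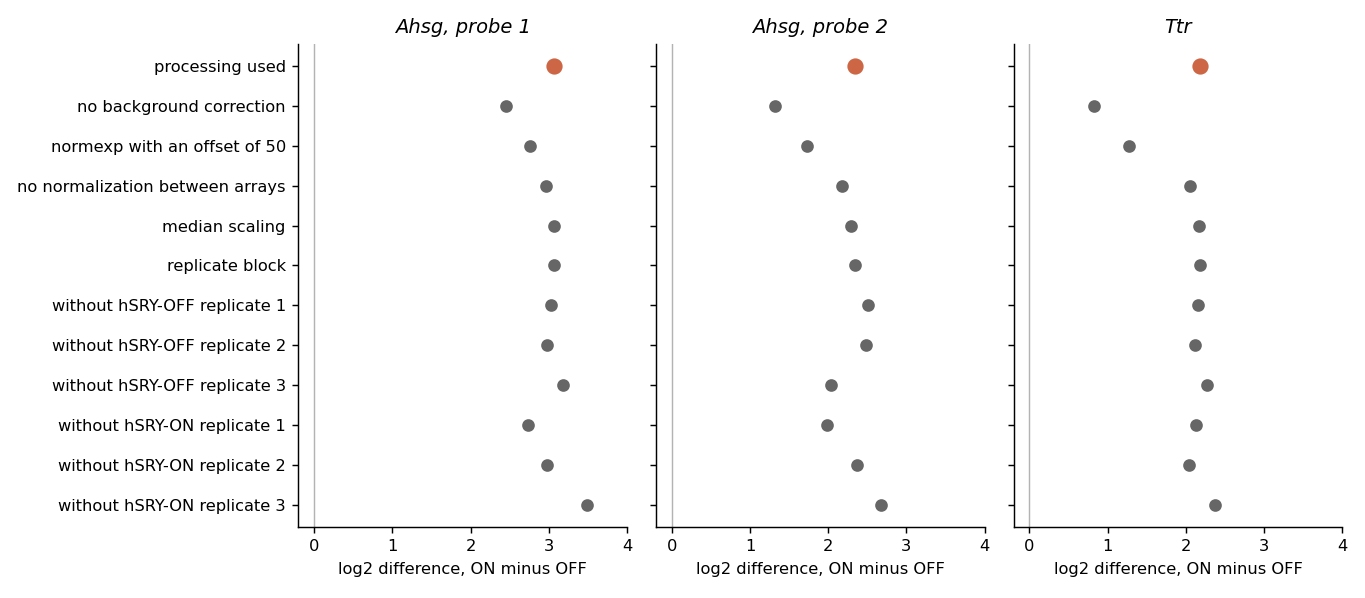
Log2 difference (hSRY-ON minus hSRY-OFF) of the 2 Ahsg probes and the Ttr probe under the processing used (orange) and under each alternative (grey), 1 row per setting. All points lie above 0, from 2.46 to 3.49 for the first Ahsg probe, from 1.32 to 2.67 for the second and from 0.83 to 2.37 for Ttr, and the lowest of each came without background correction.

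How far the 2 main members differed depended on how the background was handled. Without background correction the Ahsg probes differed by 2.46 and 1.32 and Ttr by 0.83, and with a normexp offset of 50 Ttr differed by 1.27. The mean of the hSRY-ON hearts was the higher under every alternative run for these 3 probes.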

How the data were processed

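Total RNA of P6 male hearts (3 hSRY-ON, 3 hSRY-OFF) had been hybridized to MouseRef-8 v2.0 BeadChips, 1 array per heart. The authors deposited, without normalization, the mean bead intensity of each probe and its detection p-value against negative-control beads. The study's methods name TCC and the submitters' processing notes name limma, without settings. The bead-summary software is not given in the sources used here, and no genome build enters the values.

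Intensities were processed with R 4.3.3 and limma 3.58.1 (neqc: background correction by detection p-values, offset 16, quantile normalization, log2). Python 3.11.15 with matplotlib 3.10.9 made the figures. Probes detected (p-value under 0.05) on 3 or more of the 6 arrays were tested (12970 probes, 9660 genes). Group was the only term of the lmFit and eBayes fit, with Benjamini-Hochberg adjustment over all tested probes. A gene on a list was given by its brightest probe. Bounds apply where no heart of a group was above background. The steps were checked on simulated data. The precision is limited by signal over background and by 3 arrays in each group.

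The members and the lists were chosen with earlier results of these data known. Members got no test. Named genes are all members, a fixed set of liver, lipoprotein and heart genes, in each list the called genes with the largest rise and fall, and for Ahsg and Ttr the 3 genes of highest r. Others, such as Cp, Igfals, Lrg1, Cfi, Serping1, Adh1, Aldh1l1, Gnmt, Kng1, F10, Kng2, Adipoq, Cidea, Cd3d, Prox1, Gata6, Nr1h4, Folr1, the lung and tissue markers, were named after their values were seen. Tnnt2 had no match and was not used here. Alternatives were other background corrections, normalizations, probe filters and detection thresholds, an intensity trend, the replicate number as a block, every probe of a gene, and leaving out each heart.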

Additional observations from a re-analysis of the deposited data

How the results depend on the processing

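The hSRY-ON mean stayed higher for both Ahsg probes and for Ttr under every alternative run, and no called value changed sign. Without background correction the log2 differences were 2.46 and 1.32 for Ahsg and 0.83 for Ttr, with 3 other plasma proteins lower in place of 5. An offset of 50 gave 1.27 for Ttr. Without normalization between arrays the median of all tested probes shifted to -0.12, and 1897 probes were called in place of 3567, 731 higher and 1166 lower, so that 38.5% of calls were higher in place of 50.1%. Afp and Apoh, both at background, moved to -0.13 and -0.14 there. Detection on all 6 arrays left 3 other plasma proteins lower and 3 hepatocyte genes higher and 0 lower, in place of 6 and 1, since fewer genes were tested. Counting every probe gave 10 hepatocyte probes higher. Leaving out each heart gave 2.73 to 3.49 and 1.98 to 2.67 for Ahsg, 2.04 to 2.37 for Ttr, 2220 (without hSRY-OFF replicate 1) to 3748 calls, 1123 to 1831 of them higher and 1097 to 1917 lower, 9 to 11 other plasma proteins higher and 4 to 5 lower, and 6 hepatocyte genes higher and 1 lower each time. Replicate numbers did not pair the hearts (same-numbered deviations correlated at -0.02, 0.04 and -0.07), and with the number as a block the differences stayed at 3.07, 2.34 and 2.18, while 2842 probes were called. Over single genes and alternatives, 122 values lost their call, 5 gained one and 744 kept their direction and call or moved by less than the SD. Without normalization between arrays, Igfals, Serping1, Folr1 and Gnmt were among the genes that lost their call. Without background correction, Igfals, Apom, Gnmt, Folr1, Nr1h4, Ppara, Cd3d and Cd3g were among those that lost it. The cause of these shifts was otherwise not tested. Members near background depend on detection, and a difference there cannot be sized on this array.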
